A study of Homo sapiens with 11 samples.

Results

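The noncoding hosts of small nucleolar RNAs (snoRNAs) were examined in RWPE1 cells moved from normoxia to hypoxia. Members were all genes named SNHG (small nucleolar RNA host gene) plus a number, together with GAS5, ZFAS1 and EPB41L4A-AS1, provided that a gene had at least 20 counts over all libraries. The rule took 30 of 60676 genes in the count table. It met 31 symbols, and the one left out, SNHG28, had 0 counts in every library. RWPE1 is an immortalized prostate epithelial line that does not form tumors. The 11 libraries came from cells in normoxia (called 0 h, n = 3) and after 6 h (n = 3), 12 h (n = 3) and 24 h (n = 2) in 1% oxygen. Medium of the hypoxic cells also contained 10 mM HEPES, a pH buffer, so oxygen and buffer cannot be told apart in any comparison with 0 h. Nothing in the sample descriptions says whether replicates were separate cultures, so p-values measure only the spread between these samples.

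snoRNAs guide chemical changes on ribosomal and spliceosomal RNA. C/D box snoRNAs direct 2′-O-methylation through the methyltransferase fibrillarin, and H/ACA box snoRNAs direct pseudouridylation through dyskerin. In human cells they are cut out of introns after splicing. In a protein-coding host the spliced exons are an mRNA, whereas in the genes described here the exons form a long noncoding RNA with little coding potential. Several of these exon products start with a run of pyrimidines like that of ribosomal protein mRNAs, and several, GAS5 among them, are known to be degraded by nonsense-mediated decay when they are translated.

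By RefSeq positions on GRCh38, GAS5 carried 11 snoRNAs, 10 of them C/D box, SNHG1 carried 9 and the imprinted SNHG14 locus 83. The other hosts carried 0 to 5 each, and a few carry a small Cajal body RNA in place of a snoRNA. The following are snoRNAs inside hosts that carried the main changes, shown so that the product each intron encodes can be seen. Capitals mark the conserved C box toward the 5′ end and D box toward the 3′ end of each C/D box snoRNA, or the terminal ACA trinucleotide of the H/ACA box snoRNA. All were read from the hg38 genome.
SNORD44 in GAS5, chr1:173865968-173866028, minus strand: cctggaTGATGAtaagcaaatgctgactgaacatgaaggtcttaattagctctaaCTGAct
SNORD12 in ZFAS1, chr20:49280683-49280772, plus strand: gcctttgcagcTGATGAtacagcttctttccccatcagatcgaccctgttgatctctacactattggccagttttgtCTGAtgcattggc
SNORD50A in SNHG5, chr6:85677294-85677368, minus strand: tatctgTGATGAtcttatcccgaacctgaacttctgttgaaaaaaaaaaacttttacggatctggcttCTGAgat
SNORD49A in SNHG29, chr17:16440036-16440106, plus strand: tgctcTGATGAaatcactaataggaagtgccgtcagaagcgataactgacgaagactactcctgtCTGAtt
SNORD7 in SNHG30, chr17:35573657-35573753, plus strand: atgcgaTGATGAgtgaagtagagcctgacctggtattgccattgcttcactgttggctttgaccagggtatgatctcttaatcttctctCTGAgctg
SNORA71B in SNHG17, chr20:38425195-38425330, minus strand: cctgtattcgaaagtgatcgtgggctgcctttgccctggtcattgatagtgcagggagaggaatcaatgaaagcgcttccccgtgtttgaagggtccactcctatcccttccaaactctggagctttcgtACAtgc

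Libraries held 27496009 to 49488345 counts. Normalization factors by the trimmed mean of M-values (TMM) ran from 1.29 to 1.32 at 0 h, from 1.03 to 1.07 at 6 h and from 0.91 to 0.993 at 12 h, and were 0.851 and 0.539 in 24 h replicates 1 and 2. All levels below are counts per 1000000 on TMM-scaled library sizes (CPM). With library size alone, the median of all tested genes moved by -0.32, -0.50 and -0.97 on the log2 scale at 6, 12 and 24 h against 0 h, so the directions given here are relative to the bulk of genes. Basal epithelial markers fitted the labelled cell type, with KRT5 at 6080 to 15900 CPM and TP63 at 67.0 to 259 CPM. The luminal markers KRT8 and KRT18 were also present (133 to 1140 and 93.9 to 658 CPM), whereas KLK3 had 0 counts. PTPRC, PECAM1 and DCN, markers of leukocytes, endothelium and fibroblasts, had at most 13, 5 and 1 counts, while COL1A1 was read at 27.7 to 60.5 CPM.

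The 30 hosts took a small and time-dependent share of all counts. At 0 h the share was 0.193%, 0.213% and 0.202% in replicates 1 to 3. It was 0.136%, 0.148% and 0.183% at 6 h and 0.211%, 0.168% and 0.166% at 12 h. At 24 h the 2 libraries gave 0.285% and 0.341%, above all 9 earlier libraries. SNHG29, host of SNORD49A, SNORD49B and SNORD65, supplied 27.3% to 34.6% of the host counts in every library. Per kilobase of the annotated main transcript it had the highest level at 0 h (970.6 CPM per kb), followed by GAS5 (270.7), SNHG16 (111.2) and SNHG1 (90.3). Per kilobase of all annotated exons SNHG29 (48.1) and GAS5 (42.2) kept the first and second places and SNHG6 (31.7) was next, so only the top of this order was free of the choice of length. The bulk samples cannot tell fewer cells with a transcript from less RNA per cell.

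**Figure D1:**
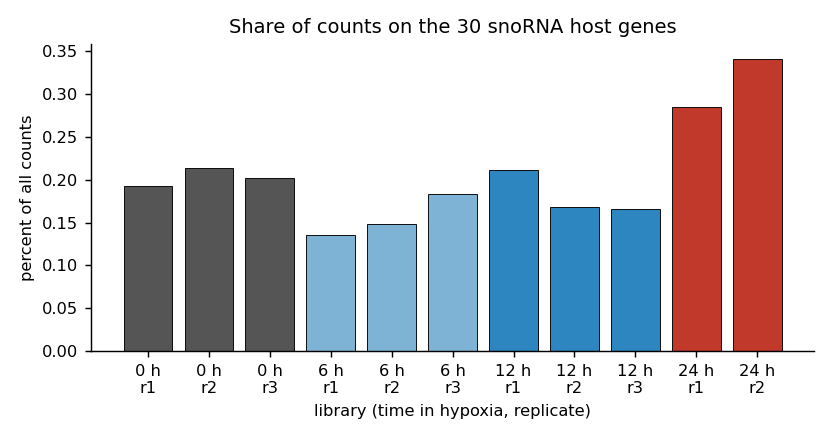
Percent of all counts that fell on the 30 hosts (vertical axis) in each of the 11 libraries (horizontal axis, time in hypoxia and replicate number, 1 bar per library). The 2 libraries at 24 h stand at 0.285% and 0.341% and the other 9 between 0.136% and 0.213%.

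Of the 30 members 28 passed the filter on low counts and were tested. SNHG18 (31 counts in all) and SNHG22 (49) did not pass. An adjusted p under 0.05 is written as a call. It came from the quasi-likelihood test of edgeR, adjusted by the method of Benjamini and Hochberg across the 19981 genes that passed, as did every other adjusted p below. At 6 h against 0 h 4 members were called higher and 4 lower, beside 25.1% and 27.7% of all tested genes. At 12 h 6 were higher and 9 lower, beside 24.2% and 27.1%. At 24 h 15 were higher and 5 lower, beside 29.9% and 31.3%. As shares, 14.3%, 21.4% and 53.6% of tested members were thus called higher at 6, 12 and 24 h. The members' median log2 fold change was -0.03, -0.13 and 0.93 at these times, and that of all tested genes was -0.0021, -0.033 and -0.065. With library size alone 7 members were called higher and 11 lower at 24 h, and the members' median there was -0.06. The share of calls that were higher at 24 h was then 38.9% in place of 75.0%, and 16.4% in place of 48.8% over all tested genes. At 12 h the members' share was 7.14% in place of 40.0%, and at 6 h 10.0% in place of an equal split. Over all tested genes the share fell too, from 47.6% to 27.6% at 6 h and from 47.2% to under 27.6% at 12 h. The drop was therefore not particular to the members. With library size alone 13 of the 15 members called higher at 24 h with TMM stayed above 0. All 15 lay above the median of all genes there. Their choice by TMM values all but fixed that outcome, so it says nothing about the scaling.

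**Figure D2:**
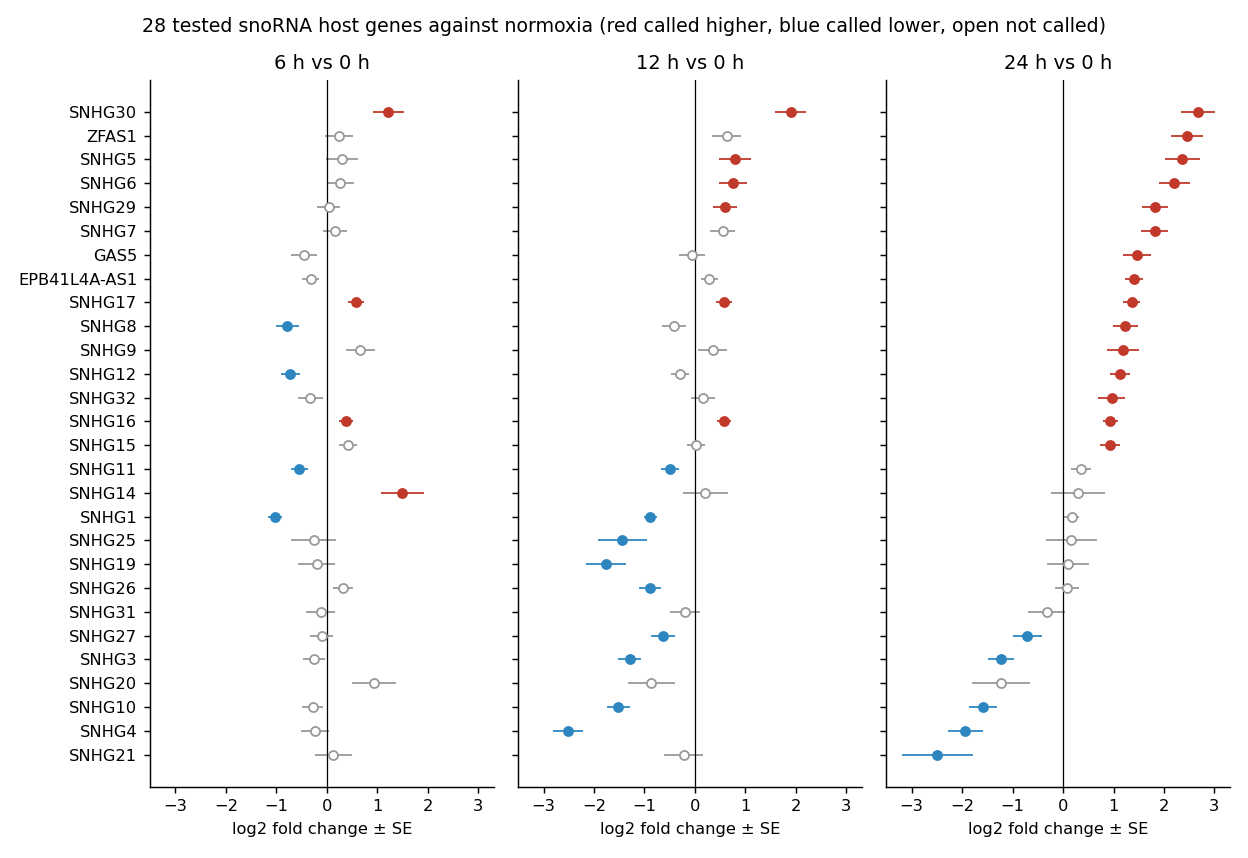
log2 fold change with its standard error (horizontal axes) of the 28 tested hosts (rows, ordered by the value at 24 h) at 6, 12 and 24 h against 0 h, from the edgeR fit. Red points were called higher, blue points lower and open points not called, and 4, 6 and 15 points are red from left to right.

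SNHG16, SNHG17 and SNHG30 were called higher at all 3 times, and no member was called lower at all 3. SNHG30 alone kept these calls with library size alone, as SNHG16 (0.06, 0.10 and 0.04 at 6, 12 and 24 h, adjusted p = 0.822, 0.676 and 0.892) and SNHG17 (0.26, 0.11 and 0.40, adjusted p = 0.187, 0.574 and 0.0539) lost theirs at every time. SNHG16, host of the SNORD1 family, was read at 55.1, 54.8 and 56.2 CPM at 0 h. It reached 59.3, 83.8 and 73.2 CPM at 6 h, 85.4, 82.9 and 78.8 at 12 h and 109.4 and 102.8 at 24 h. All 8 hypoxic libraries lay above the 3 normoxic ones, and the 2 libraries at 24 h differed little. Its log2 fold change was 0.38 ± 0.14 (SE) at 6 h (adjusted p = 0.0322), 0.57 ± 0.14 at 12 h (adjusted p = 0.00409) and 0.94 ± 0.15 at 24 h (adjusted p = 0.000184). The call at 6 h was lost, with adjusted p up to 0.14, when any normoxic library, 6 h replicate 2 or 3, or 12 h replicate 2 was left out, and the value ran from 0.26 to 0.51 over all 11 omissions.

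SNHG17, host of the SNORA71 family, stood at 43.1, 41.1 and 44.8 CPM at 0 h and at 56.7, 76.7 and 59.4 CPM at 6 h. The 12 h libraries gave 70.1, 59.4 and 63.5 CPM and those of 24 h 95.7 and 124.7. Its groups at 0 h and in hypoxia did not overlap, 6 h and 12 h did. The log2 fold changes were 0.58 ± 0.15 (adjusted p = 0.00675), 0.58 ± 0.15 (adjusted p = 0.00718) and 1.36 ± 0.17 (adjusted p = 2.63e-05) at 6, 12 and 24 h, and no omission of a library ended a call.

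SNHG30, host of SNORD7, had the lowest level of these hosts, at 2.19, 2.03 and 2.07 CPM. It rose to 4.41, 4.83 and 5.44 CPM at 6 h and to 8.42, 7.85 and 7.29 at 12 h. At 24 h replicate 1 (6.80 CPM) lay below all 12 h libraries and replicate 2 (20.1 CPM) far above them. Log2 fold changes were 1.22 ± 0.31 (adjusted p = 0.00511), 1.90 ± 0.31 (adjusted p = 0.000334) and 2.67 ± 0.34 (adjusted p = 2.88e-05), the last of them 1.68 without 24 h replicate 2.

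GAS5 (growth arrest specific 5, chr1:173858559-173868882, minus strand) is the best known member, an RNA that builds up in cells that stop growing. At 0 h it was read at 185.8, 232.1 and 205.8 CPM. The 6 h libraries gave 136.1, 125.6 and 194.4 CPM, and those of 12 h 258.8, 164.4 and 176.6. These 9 libraries overlapped between times, whereas 24 h replicates 1 and 2 reached 399.6 and 753.3 CPM. The log2 fold change was -0.45 ± 0.25 at 6 h (adjusted p = 0.15) and -0.06 ± 0.25 at 12 h (adjusted p = 0.868), neither called. At 24 h it was 1.47 ± 0.28 (adjusted p = 0.000631), or 0.92 (adjusted p = 0.00797) without 24 h replicate 2. It was 0.45 (adjusted p = 0.105) with library size alone, which ended the call. The 6 h value, not called in the main fit, was called lower with library size alone (-0.77, adjusted p = 0.0104). It was also called lower with no filter (adjusted p = 0.0305) and in a fit of only the 2 times compared (adjusted p = 0.029).

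ZFAS1 (chr20:49278178-49299600, plus strand) lies head to head with ZNFX1 and hosts the SNORD12 family. Its levels were 116.5, 135.5 and 123.5 CPM at 0 h, 129.9, 123.7 and 189.1 at 6 h, and 249, 154.5 and 177.3 at 12 h. At 24 h the 2 libraries gave 412.4 and 965.8 CPM, each above every earlier library. Neither 6 h (0.24 ± 0.28, adjusted p = 0.494) nor 12 h (0.63 ± 0.28, adjusted p = 0.0797) was called, although the 12 h libraries did not overlap those of 0 h. The 12 h value was called with no filter (adjusted p = 0.00492) and in a fit of only the 2 times compared (adjusted p = 0.00478). The log2 fold change at 24 h was 2.46 ± 0.32 (adjusted p = 3.34e-05), 1.70 without 24 h replicate 2 and 1.41 with library size alone.

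EPB41L4A-AS1 (chr5:112160526-112164818, plus strand) is the antisense neighbor of EPB41L4A and holds SNORA13. It was read at 74.0, 72.6 and 71.4 CPM at 0 h and at 49.5, 61.5 and 63.7 at 6 h. The 12 h libraries stood at 100.6, 82.4 and 83.7 CPM and the 24 h libraries at 155.9 and 227.2. All 6 h libraries were thus below and all later ones above normoxia. Only the difference at 24 h was called (1.40 ± 0.18 on the log2 scale, adjusted p = 3.24e-05, and 0.42 with library size alone), against -0.32 ± 0.16 at 6 h (adjusted p = 0.113) and 0.29 ± 0.16 at 12 h (adjusted p = 0.152). The 6 h value was called with library size alone (adjusted p = 0.00387) and with at least 10 counts in every library (adjusted p = 0.0444). A fit of only the 2 times compared called it too (adjusted p = 0.0194), and such a fit called the 12 h value (adjusted p = 0.013).

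SNHG1 (chr11:62851978-62855953, minus strand), whose introns hold SNORD22 and SNORD25 to SNORD31, followed another course. It fell from 104.8, 106.3 and 103.8 CPM at 0 h to 60.0, 52.1 and 42.8 CPM at 6 h. It stayed at 58.4, 56.4 and 56.3 CPM at 12 h and stood at 121.7 and 115.6 at 24 h. The groups at 0 h and at 6 and 12 h were far apart, and the 24 h libraries were close to each other. The log2 fold changes were -1.03 ± 0.14 (adjusted p = 6.02e-05) and -0.88 ± 0.14 (adjusted p = 0.000225) at 6 and 12 h, with no call at 24 h (0.18 ± 0.15, adjusted p = 0.319, but -0.73 and adjusted p = 0.0104 with library size alone). Between 12 and 24 h it rose by 1.06 ± 0.15 (adjusted p = 0.00133).

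**Figure D3:**
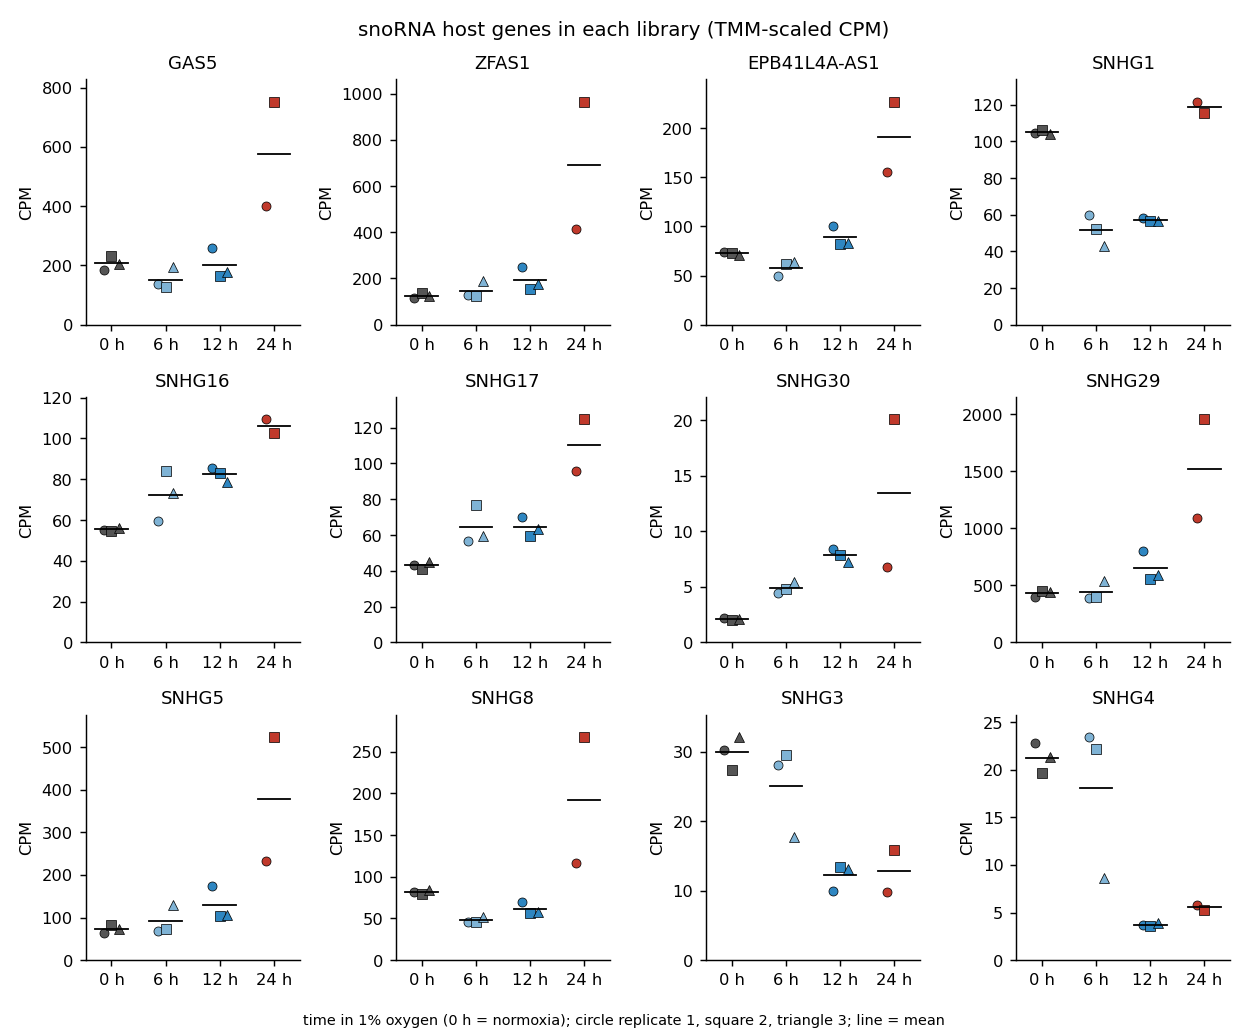
CPM (vertical axes, each from 0) of 12 hosts in the 11 libraries by time in hypoxia (horizontal axes), 1 point per library with its replicate shown by shape, and the mean as a line. GAS5 and ZFAS1 are highest in both 24 h libraries, SNHG1 is low at 6 and 12 h, and SNHG3 and SNHG4 are low from 12 h on.

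The members described from here on were chosen for display after their values were seen. SNHG29, SNHG5 and SNHG6 were called higher at 12 and 24 h. SNHG29 was read at 400.6, 450.3 and 439 CPM at 0 h, 387.4, 402.1 and 536.7 at 6 h, 803.8, 556.1 and 591.1 at 12 h, and 1090 and 1956 at 24 h. Its 12 h and 24 h libraries were all above those of 0 h. The log2 fold change was 0.60 ± 0.23 at 12 h (adjusted p = 0.045) and 1.82 ± 0.25 at 24 h (adjusted p = 6.23e-05). SNHG5, host of SNORD50A and SNORD50B, stood at 64.7, 82.6 and 73.2 CPM at 0 h, at 174.6, 103.6 and 106.7 at 12 h, and at 232.8 and 524.3 at 24 h (0.80 ± 0.32, adjusted p = 0.0488, and 2.36 ± 0.35, adjusted p = 0.000101). SNHG6, host of SNORD87, gave log2 fold changes of 0.76 ± 0.27 (adjusted p = 0.0353) and 2.20 ± 0.30 (adjusted p = 5.85e-05). The calls at 12 h were near the threshold. That of SNHG29 (0.42 to 0.66 over all omissions) and that of SNHG5 (0.52 to 0.92) were each lost on leaving out any 0 h or 12 h library or 6 h replicate 1 or 2, with adjusted p up to 0.183 and 0.221. That of SNHG6 (0.62 to 0.82) was lost without any 0 h or 12 h library, with adjusted p up to 0.122. All 3 calls at 12 h were also lost with library size alone (0.12, 0.32 and 0.28, adjusted p = 0.6, 0.336 and 0.312 for SNHG29, SNHG5 and SNHG6).

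SNHG7, SNHG9, SNHG15 and SNHG32 were, like GAS5, ZFAS1 and EPB41L4A-AS1, called higher at 24 h alone. SNHG7, host of SNORA17A and SNORA17B, went from 83.7, 92.6 and 95.1 CPM at 0 h to 192.2 and 444.7 CPM at 24 h (1.82 ± 0.27, adjusted p = 0.000109, and 1.07 without 24 h replicate 2). SNHG32, host of SNORD48 and SNORD52, went from 37.3, 45.1 and 38.7 to 56.3 and 101 CPM (0.96 ± 0.27, adjusted p = 0.0072). Its groups did not overlap, but without 24 h replicate 2 the call was lost (0.46, adjusted p = 0.151). SNHG9, host of SNORA78, went from 1.30 CPM or less in the 3 libraries at 0 h to 2.27 and 3.49 CPM (1.19 ± 0.32, adjusted p = 0.00618), and its call was also lost without that library (0.84, adjusted p = 0.0699). SNHG15, host of SNORA9, kept its call (0.92 ± 0.20, adjusted p = 0.00154), with 0.50 (adjusted p = 0.0199) without that library. With library size alone the raw values of SNHG15 and SNHG32 at 24 h were -0.069 and -0.046, above the -0.97 of all genes, and with that of SNHG9 (0.22, adjusted p = 0.538) their calls were lost.

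SNHG8 and SNHG12 were called lower at 6 h and higher at 24 h. SNHG8, host of SNORA24, was read at 81.7, 79.9 and 83.7 CPM at 0 h and at 45.3, 46.0 and 51.4 CPM at 6 h. It stood at 69.2, 56.8 and 58.0 CPM at 12 h and at 116.6 and 267.8 CPM at 24 h. Every 6 h and 12 h library was below and both 24 h libraries were above normoxia. The log2 fold change was -0.78 ± 0.23 at 6 h (adjusted p = 0.0126) and 1.23 ± 0.25 at 24 h (adjusted p = 0.00108, and 0.49 without 24 h replicate 2). SNHG12, host of SNORA44, SNORA61, SNORA16A and SNORD99, went from 36.7, 36.6 and 38.3 CPM to 23.2, 21.5 and 23.1 at 6 h, 29.3, 30.7 and 30.9 at 12 h, and 57.7 and 104.5 at 24 h. It gave -0.72 ± 0.18 at 6 h (adjusted p = 0.00484) and 1.12 ± 0.20 at 24 h (adjusted p = 0.000339, and 0.61 without 24 h replicate 2). The 24 h calls of both were lost with library size alone, at 0.19 (adjusted p = 0.375) for SNHG8 and 0.11 (adjusted p = 0.523) for SNHG12.

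A smaller group was lower in later hypoxia. SNHG4, host of SNORA74A, was read at 22.8, 19.6 and 21.4 CPM at 0 h and at 23.5, 22.3 and 8.66 CPM at 6 h, where replicate 3 stood apart. It was 3.69, 3.59 and 3.88 CPM at 12 h and 5.82 and 5.29 CPM at 24 h, well below normoxia in all 5 libraries. The log2 fold changes were -2.52 ± 0.30 at 12 h (adjusted p = 3.89e-05) and -1.94 ± 0.35 at 24 h (adjusted p = 0.000401). SNHG3, host of SNORA73A and SNORA73B, went from 30.3, 27.5 and 32.2 CPM at 0 h to 9.91, 13.5 and 13.2 at 12 h and 9.84 and 15.9 at 24 h (-1.30 ± 0.22, adjusted p = 0.000513, and -1.22 ± 0.26, adjusted p = 0.0014). SNHG10, which carries the small Cajal body RNA SCARNA13, went from 3.15 to 3.28 CPM at 0 h to 0.83 to 1.26 CPM at 12 and 24 h (-1.52 ± 0.23, adjusted p = 0.000185, and -1.59 ± 0.28, adjusted p = 0.000354). No single omission ended these 6 calls. SNHG27 was called at -0.63 ± 0.23 (adjusted p = 0.0385) and -0.71 ± 0.29 (adjusted p = 0.0459), and lost both calls in several omissions. At 12 h these were 0 h replicates 2 and 3 and each 12 h library (adjusted p up to 0.127). At 24 h they were 0 h replicates 2 and 3, 6 h replicates 2 and 3, 12 h replicates 1 and 3, and 24 h replicate 2 (adjusted p up to 0.149, -0.93 to -0.59).

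Other members were lower at 1 time or at 6 and 12 h. SNHG19, SNHG25 and SNHG26 were called lower at 12 h alone. SNHG19, host of SNORD60, went from 3.07, 3.47 and 3.27 CPM at 0 h to 0.981, 0.771 and 1.12 at 12 h (-1.76 ± 0.40, adjusted p = 0.0028). SNHG26, host of SNORD93, changed by -0.89 ± 0.21 (adjusted p = 0.00387). SNHG25, host of SNORD104, changed by -1.44 ± 0.48 (adjusted p = 0.0247), and leaving out 0 h replicate 1 or 2 or 12 h replicate 1 or 3 ended its call (adjusted p up to 0.0973). SNHG11, host of SNORA60 and SNORA71E, was called lower at 6 h (-0.54 ± 0.17, adjusted p = 0.019) and 12 h (-0.49 ± 0.17, adjusted p = 0.0312). Its 6 h call was lost without 0 h replicate 1 or 3 or 6 h replicate 1 (adjusted p up to 0.0739), and its 12 h call without any 0 h library or 12 h replicate 1 or 2 (adjusted p up to 0.0877). SNHG21 was read with 13, 12 and 10 counts at 0 h and 1 count in each 24 h library, a ratio of 0.168 (95% exact interval 0.0195 to 0.652 for counting error alone, adjusted p = 0.00851). That call was lost without 24 h replicate 1 (adjusted p = 0.055).

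The remaining members showed little or were near the limit of detection. SNHG14, the long imprinted host of the SNORD115 and SNORD116 clusters on the other strand of UBE3A, was called at 6 h alone, going from 0.739, 0.533 and 0.553 CPM to 2.36, 1.85 and 1.06 (2.82-fold, adjusted p = 0.0102, and 0.0514 with library size alone). SNHG20 and SNHG31 were not called at any time against 0 h in the main fit. With no filter SNHG20 was called higher at 6 h (adjusted p = 0.00479) and lower at 12 and 24 h (adjusted p = 0.00926 and 0.00069). SNHG31 was called lower at 24 h with library size alone (adjusted p = 0.0151). SNHG20 gave -1.24 ± 0.58 at 24 h (adjusted p = 0.0815), where the 2 libraries differed most of all members (0.342 and 1.74 CPM), and -2.80 (adjusted p = 0.0059) without 24 h replicate 2. SNHG18 had 0 to 3 counts per library up to 12 h and 7 and 6 counts at 24 h. SNHG22 had 10, 6 and 13 counts at 0 h and 0 to 6 in the hypoxic libraries.

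Between hypoxic times more members were called higher after 12 h than before it. From 6 to 12 h 0 members were called higher by edgeR (4 at an unadjusted p under 0.05) and 6 lower, beside 1.88% and 3.07% of all tested genes. Both limma-voom and DESeq2 called 1 member higher there. The 6 lower were SNHG3, SNHG4, SNHG10, SNHG19, SNHG20 and SNHG26, and SNHG4 changed most (-2.28 ± 0.30, adjusted p = 0.00395). Of these calls only that of SNHG4 survived every omission. Those of SNHG19 and SNHG20 (adjusted p = 0.0431 and 0.0447) were each lost in 8 of 11 omissions, all but 6 h replicate 3 and the 24 h libraries, with adjusted p up to 0.18 and 0.185. That of SNHG3 was lost without 6 h replicate 1 or 2 or any 12 h library, and those of SNHG10 and SNHG26 without 6 h replicate 2 or 12 h replicate 2 or 3, with adjusted p up to 0.103, 0.0725 and 0.0643. From 12 to 24 h 17 members were called higher and 1 lower, beside 15.1% and 13.3%, with a median log2 fold change of 0.88 against -0.0060 for all tested genes. ZFAS1 changed by 1.83 ± 0.31 (adjusted p = 0.0025) and SNHG8 by 1.65 ± 0.25 (adjusted p = 0.00172). Without 24 h replicate 2 the 17 became 8, with the calls of SNHG5, SNHG6, SNHG7, SNHG11, SNHG15, SNHG19, SNHG25, SNHG26 and SNHG32 lost. SNHG25 and SNHG32 lost theirs in 8 of 11 omissions each, with adjusted p up to 0.381 and 0.459. The 1 member called lower, SNHG21, rested on 1 count in each 24 h library and was lost without any 12 h or 24 h library (adjusted p up to 0.115). Moreover, in a fit of the 12 h and 24 h libraries alone 0 members were called higher, with 19 at an unadjusted p under 0.05. From 6 to 24 h 15 were higher and 5 lower, beside 22.1% and 20.3%. There SNHG30 lost its call without 24 h replicate 2 (from 1.45 to 0.47, adjusted p = 0.0881), and SNHG20 and SNHG21 lost theirs without 24 h replicate 1 (adjusted p = 0.0514 and 0.0552).

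The 2 libraries at 24 h differed from each other in most hosts. Replicate 2 was above replicate 1 in 22 of 28 tested members, with a median difference of 0.70 in log2 CPM. Over all 19981 tested genes the median difference was 0.02. Cytosolic ribosomal protein genes differed still more, by a median of 1.27, with 85 of 87 higher in replicate 2. SNHG1, SNHG16 and SNHG4 differed by -0.07, -0.09 and -0.14, and SNHG14, the lowest, by -1.14. Leaving out replicate 2 left 13 members called higher and 5 lower at 24 h, and leaving out replicate 1 left 16 and 5. Shares over all tested genes are not given for these omissions. The log2 fold changes of the 15 members called higher ran from 0.92 to 2.67 with both libraries and from 0.46 to 1.70 without replicate 2. All 15 stayed above 0 and 7 of them shrank by over 1.5 times. They were chosen with both libraries in the fit, and in each both lay above every 0 h library. That choice all but fixed the sign, so the sign is no separate support for the rise.

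**Figure D4:**
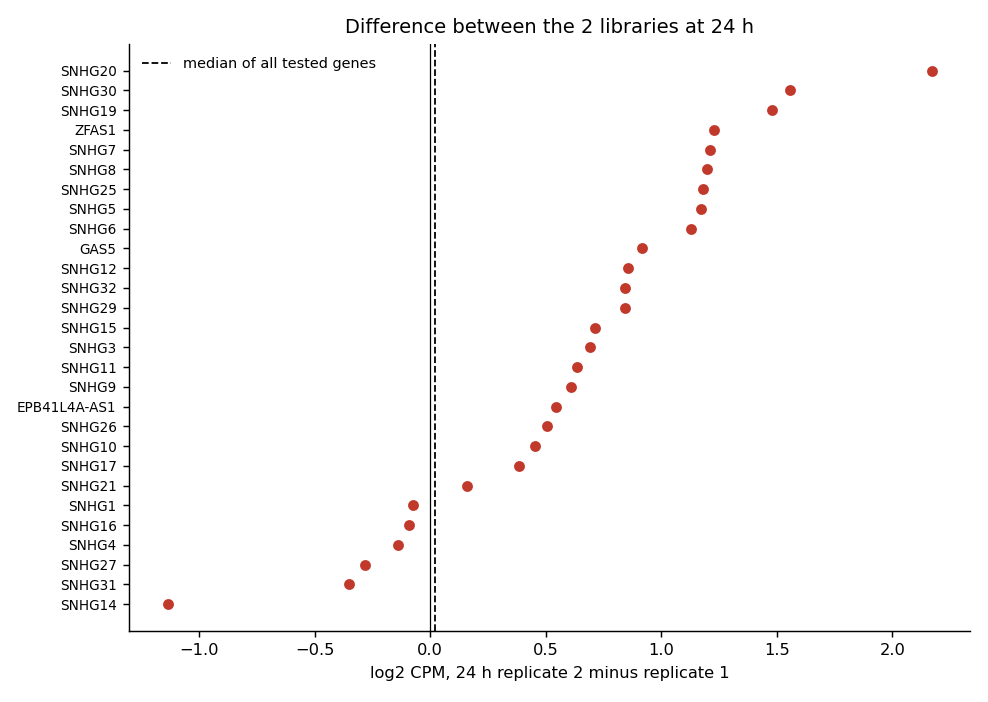
Difference in log2 CPM between 24 h replicate 2 and replicate 1 (horizontal axis) for the 28 tested hosts (rows), with the median of all tested genes as a dashed line. Points to the right of 0, 22 of 28, were higher in replicate 2.

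Many hosts overlap other genes, and the kit kept strand while the strand setting of the counting is not given in the sources used here. Without strand, reads of both genes in an overlap cannot be told apart. SNHG6 shares 58.9% of its annotated exonic bases with MCMDC2 on the other strand, EPB41L4A-AS1 51.2% with EPB41L4A, SNHG8 37.6% with PRSS12, SNHG7 30.3% with DIPK1B, and ZFAS1 36.4% with genes on the other strand that include ZNFX1. At 24 h the partners named here were called lower, while the 5 hosts were called higher. ZNFX1 changed by -1.40 ± 0.19 (adjusted p = 4.42e-05) and EPB41L4A by -1.58 ± 0.29 (adjusted p = 0.000469). PRSS12, MCMDC2 and DIPK1B changed by -0.86, -1.53 and -1.52. Most of these partners were read far below their host, with at most 12.4 CPM for EPB41L4A and 0.818 CPM for MCMDC2, whereas ZNFX1 stood at 30.8 to 191 CPM. The unnamed gene ENSG00000284526, opposite 28.5% of SNHG16, changed by -3.30. LRRC75A, opposite SNHG29, was not called (0.04 ± 0.32, adjusted p = 0.921). Beside the 29.9% of all tested genes higher and 31.3% lower at 24 h, 6 of 16 tested members with under 5% of bases shared on the other strand were higher and 3 lower, with a median log2 fold change of 0.24. Of the 12 with 5% or more, 9 were higher and 2 lower, with a median of 1.43, and the difference between these sets was not tested. On its own strand SNHG4 shares 14.0% of its bases with MATR3, an entry with only 0.545 to 4.77 CPM. That entry changed by -1.98 ± 0.36 at 24 h (adjusted p = 0.000462) and was not called at 12 h (-0.0034 ± 0.27, adjusted p = 0.992). The part of the overlaps in these results was not tested.

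Few counts fell on the snoRNAs themselves. RNA longer than 200 nucleotides was kept, many snoRNAs also lie within annotated exons of their host, where reads can be ambiguous, and the part of either in the low counts was not tested. The rows were those of GENCODE, which lists no snoRNA gene inside GAS5, so the snoRNAs of GAS5 were not examined. SNORD29, SNORD31 and SNORD50A were missing too, and SNORD22, SNORA16A and SNORA17B each had more than 1 identifier. Of 54 such identifiers inside members other than SNHG14, 40 had 0 counts in all libraries. With SNHG14, a host read at 2.36 CPM or less, these were 124 of 138, and all 138 together held 1473 counts against 759987 for the hosts. Only 6 reached 20 counts. SNORD104, inside SNHG25, gave 95, 89 and 109 counts at 0 h, 44, 65 and 55 at 6 h, 13, 35 and 46 at 12 h, and 19 and 27 at 24 h, and was called lower at 12 h (-1.48 ± 0.35, adjusted p = 0.0038) and 24 h (-1.09 ± 0.41, adjusted p = 0.0363). SNORD99, inside SNHG12, gave 39, 27 and 38 counts at 0 h and was called lower at 12 h (12, 19 and 12 counts, adjusted p = 0.0179). It had 1 count in each 24 h library, a ratio of 0.0564 (95% exact interval 0.00674 to 0.209 for counting error alone, adjusted p = 0.000147), while the exons of SNHG12 were called higher there. SNORA71B and SNORA73B, the other pair that was tested, were not called at any time.

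All 8 core proteins of the C/D and H/ACA particles were called higher at 6, 12 and 24 h, with median log2 fold changes of 0.99, 0.99 and 1.40. Beside them 25.1%, 24.2% and 29.9% of all tested genes were called higher and 27.7%, 27.1% and 31.3% lower. NOP10 of the H/ACA particle changed by 2.33 ± 0.28 at 24 h (adjusted p = 2.04e-05), the methyltransferase FBL by 2.04 ± 0.19 (adjusted p = 4.37e-06) and the kink-turn binding protein SNU13 by 1.58 ± 0.15 (adjusted p = 4.91e-06). Of 10 assembly factors 7, 8 and 9 were higher and 0 lower at the 3 times, with SHQ1, RPAP3 and NOLC1 at 1.34, 1.70 and 0.99 at 24 h. With no other scaling than library size the medians of the core proteins at 6, 12 and 24 h were 0.67, 0.52 and 0.47.

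Nonsense-mediated decay factors moved in both directions. Of 10 tested, 6 were higher and 2 lower at 6 h, 5 and 4 at 12 h, and 2 and 5 at 24 h, with medians of 0.63, 0.31 and -0.52. Over all tested genes 25.1%, 24.2% and 29.9% were higher and 27.7%, 27.1% and 31.3% lower at these times. With library size alone the median of the decay factors was 0.30, -0.16 and -1.37, beside -0.32, -0.50 and -0.97 for all tested genes. Its sign turned at 12 h, where it still lay above the median of all tested genes. UPF2 was higher at all 3 times (0.88 ± 0.25 at 24 h, adjusted p = 0.00781). SMG9 was lower at all 3 times (-1.45 ± 0.16 at 6 h, adjusted p = 1.53e-05, and -0.93 ± 0.18 at 24 h, adjusted p = 0.000757). The endonuclease SMG6 was lower at 12 h (-0.66 ± 0.25, adjusted p = 0.0424) and 24 h (-1.77 ± 0.31, adjusted p = 0.000325). Of 5 exon junction complex genes 3 were higher at each time, among them the helicase EIF4A3 (1.31 ± 0.13 at 24 h, adjusted p = 5.52e-06), and 2, 2 and 1 lower. Their median went from 0.70 to -0.26 at 24 h with library size alone, beside -0.97 for all tested genes.

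Of 255 protein-coding snoRNA hosts in the annotation 206 were tested, and 86 were higher and 52 lower at 24 h, with a median of 0.17 (-0.73 with library size alone). Those were 41.7% and 25.2% of the tested hosts, beside 29.9% and 31.3% of all tested genes. The median of all tested genes with library size alone was -0.97 there. Of 87 tested cytosolic ribosomal protein genes 84 were higher and 0 lower at 24 h, with a median of 2.55 (1.501 with library size alone). At 6 h 17 of them were higher (19.5%, beside 25.1% of all tested genes), with a median of 0.52. By the same annotation rule the count table holds 75 noncoding hosts, of which 25 are members. GAS5 is not among the 75, as GENCODE lists no snoRNA gene inside it. Of these 75, 39 were tested, and 17 were higher (43.6%) and 7 lower (17.9%) at 24 h, with a median of 0.26 (-0.73 with library size alone). The median of 0.93 is therefore that of the named members and not of annotated noncoding hosts in general.

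**Figure D5:**
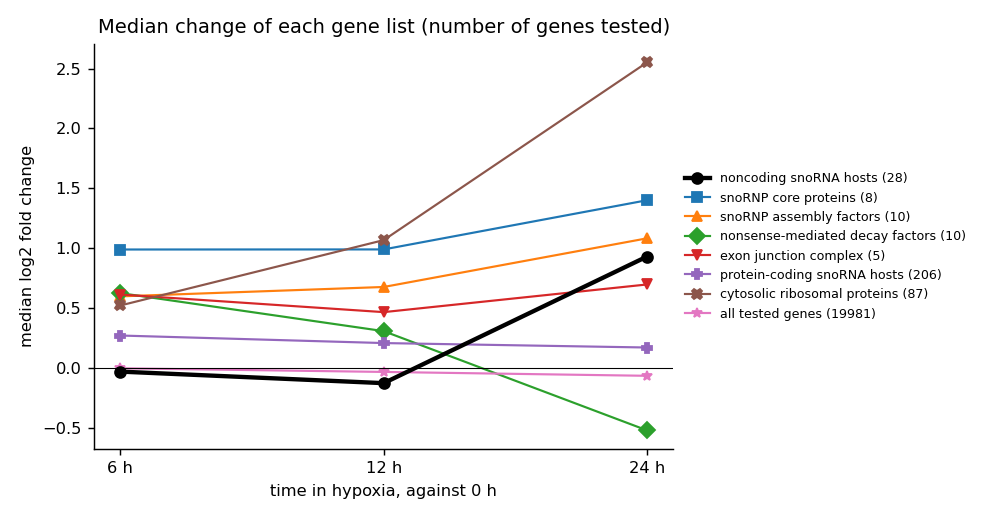
Median log2 fold change (vertical axis) of each gene list at 6, 12 and 24 h against 0 h (horizontal axis), with the number of genes tested in brackets. The noncoding snoRNA hosts, in black, run from -0.03 over -0.13 to 0.93, and the ribosomal protein genes from 0.52 to 2.55.

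Ribosomal protein mRNAs start with C followed by a run of pyrimidines, the terminal oligopyrimidine tract through which growth signals control their translation. The RefSeq start of each host was read for these letters, as C at the start base followed by at least 4 further C or T. Of 30 members 26 matched a RefSeq window of 300 bases on GRCh38.p14, and SNHG6, SNHG9, SNHG15 and SNHG25 had no entry. These letters were read from the start base on in 7 of 26 (26.9%), in 49 of 86 ribosomal protein genes (57.0%) and in 4.07% of 35116 windows of all genes. In SNHG12 and SNHG18 the run itself began before the start base and continued over it. With a run anywhere within 10 bases of the start, a setting added after the sequences were seen, these shares were 61.5%, 77.9% and 33.5%. The 7 were ZFAS1, SNHG4, SNHG5, SNHG12, SNHG18, SNHG19 and SNHG32, which include hosts called higher, called lower and not called at 24 h. Not every RefSeq start lay inside the gene as counted. That of GAS5 was at 173869045, beyond the end of its GENCODE body at 173868882 on the minus strand. That of SNHG14 was at 24823608, before its body start at 24978583. Those of SNHG3 (28505943, body from 28505980) and SNHG4 (139274101, body from 139274102) also lay before the body, though close to it. For GAS5, SNHG14 and SNHG3 the lack of a run at the RefSeq start need not describe the start of the counted gene. Sequences of 30 bases around the start follow, with the start at base 11 and the pyrimidine run in capitals, and SNHG30 as a host without one.
ZFAS1, chr20:49278632-49278661, plus strand: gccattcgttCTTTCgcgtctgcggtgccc
SNHG5, chr6:85678714-85678743, minus strand: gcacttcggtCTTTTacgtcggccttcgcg
SNHG32, chr6:31834906-31834935, plus strand: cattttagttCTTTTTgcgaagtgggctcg
SNHG12, chr1:28581854-28581883, minus strand: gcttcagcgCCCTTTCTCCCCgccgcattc
SNHG4, chr5:139274091-139274120, plus strand: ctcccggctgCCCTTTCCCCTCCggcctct
SNHG30, chr17:35568104-35568133, plus strand: tgtaagacctgagccgggcggagaagcaaa

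The same windows were searched on both strands for ACGTG, the core letters of hypoxia response elements, and for CACGTG, the E-box of MYC and related factors, which contains the former. The shorter motif was present in 5 of 26 member windows (19.2%), and in 21.4% of all windows. These 5 were EPB41L4A-AS1, SNHG7, SNHG8, SNHG11 and SNHG30. CACGTG was present in 2 of 26 (7.69%), SNHG7 and SNHG30, and in 7.26% of all windows.

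Across the 11 libraries, which share depth and time point differences, the log2 CPM most like that of GAS5 were those of SNHG8 (Pearson r = 0.952), EPB41L4A-AS1 (0.942) and SNHG12 (0.933). The least like it was SNHG21 (-0.849). These values are descriptions and rest on the same 11 libraries as the comparisons above.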

How the data were processed

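RWPE1 RNA libraries (stranded TruSeq kit, RNA over 200 nucleotides, 75 cycles, single end) were made in 1 batch of 12, of which 11 were used here. Per the labels and the methods of the study, the authors trimmed the reads (Trimmomatic), aligned them to hg38 (STAR) and counted them per Ensembl gene (featureCounts), and they deposited whole-number counts that are neither filtered nor normalized. Versions of STAR and featureCounts and the strand setting are not given in the sources used here. All 11 columns matched a sample, and 0 were left over.

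Symbols and positions were taken from GENCODE release 44 (60357 of 60676 identifiers found). filterByExpr (minimum count 10, minimum total 15) kept 19981 genes, scaled with TMM. edgeR's quasi-likelihood test (glmQLFit, glmQLFTest) was fitted to the 11 libraries together with time as its single factor (biological coefficient of variation 19.6%), with Benjamini-Hochberg adjustment. SE is the absolute log2 fold change over the square root of F. An exact two-sided permutation test of 3 against 3 libraries cannot go below 0.1, and none was run. log2 CPM used a prior count of 2. The intervals cover counting error only. Values of some overlapping and marker genes are not reported here. Sequences are from RefSeq (GRCh38.p14) and the hg38 genome, and the scripts were tested on simulated counts.

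The members and gene lists were chosen with earlier results of these data known. Shown library by library by rule were GAS5, ZFAS1, EPB41L4A-AS1, SNHG1 and members called in 1 direction at all 3 times (up to 5 with the largest mean change each way), list examples are the up to 3 genes with the largest mean change, and other hosts were picked after their values were seen. Alternatives were limma-voom, DESeq2, median-of-ratios factors, library size alone, no filter, at least 10 counts in every library, only the 2 time points compared, a replicate block and each library left out. Replicate pairs differed by more than sampling noise (chi-square per degree of freedom 3.21 to 288). Fits ran in edgeR 4.0.16, DESeq2 1.42.0 and limma 3.58.1 under R 4.3.3, and figures in matplotlib 3.10.9 with pandas 2.3.3, numpy 2.4.6 and Python 3.11.15.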

Additional observations from a re-analysis of the deposited data

Results flagged for a closer look

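SNHG8 and SNHG12 were singled out because their difference from normoxia had opposite signs at 6 h and at 24 h. Since they were chosen for this in the same fit, their change from 6 to 24 h is a description. SNHG8 was called lower at 6 h (-0.78 on the log2 scale) and higher at 24 h (1.23), and the difference between 24 and 6 h was 2.01 ± 0.25. SNHG12 was called lower at 6 h (-0.72) and higher at 24 h (1.12), and the difference between 24 and 6 h was 1.84 ± 0.20. In both genes every 6 h library lay below and both 24 h libraries lay above the 3 normoxic ones. Without 24 h replicate 2 these differences were 1.29 and 1.35, the lowest of all omissions. The calls at 24 h were lost with library size alone (0.19, adjusted p = 0.375, for SNHG8 and 0.11, adjusted p = 0.523, for SNHG12).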

How the results depend on the processing

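With library size alone 1 member was called higher and 9 lower at 6 h, 1 higher at 12 h, 7 higher and 11 lower at 24 h, 11 higher from 12 to 24 h and 8 lower from 6 to 24 h. Signs turned there, with a call under either scaling, at 12 h for SNHG15 (-0.45), and at 24 h for SNHG1 (-0.73), SNHG11 (-0.62), SNHG15 (-0.069), SNHG19 (-0.95), SNHG26 (-0.89) and SNHG32 (-0.046), beside a shift of all genes of -0.97. Further signs turned with no call under either, among them ZFAS1 at 6 h (0.24 to -0.078) and EPB41L4A-AS1 at 12 h (0.29 to -0.18). With at least 10 counts in every library, which leaves 24 members, 2 were higher at 6 h, 3 at 12 h, 1 from 6 to 12 h, and 0 lower from 12 to 24 h. From 6 to 12 h limma-voom, DESeq2 and no filter each called 1 member higher and a fit of the 2 times compared 3. From 12 to 24 h DESeq2 and no filter called 0 lower (1 at an unadjusted p under 0.05 in each), and the fit of the 2 times 0 in either direction (19 higher and 0 lower unadjusted). That fit called 3 lower from 6 to 24 h. Alternatives also added calls absent from the main fit, such as SNHG7 higher at 12 h with no filter (adjusted p = 0.0156). Shares over all tested genes are not given for the other counts in this paragraph, and the causes were not tested.

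Omitting each library in turn left 3 to 7 higher and 3 to 7 lower at 6 h, 3 to 8 and 6 to 13 at 12 h, 13 to 16 and 4 to 5 at 24 h, 0 to 5 and 1 to 8 from 6 to 12 h, 8 to 19 and 0 to 1 from 12 to 24 h, and 14 to 16 and 4 to 6 from 6 to 24 h. The highest counts at 6 and 12 h came without either 24 h library, which gave 7 and 7 at 6 h and 8 and 13 at 12 h, with 29 members tested. Replicate numbers gave no sign of pairing. Deviations of same-numbered samples had correlations of -0.156 to 0.207, beside -0.271 to 0.283 for samples with different numbers. With so few libraries at each time these values cannot establish that the samples were unpaired. With a replicate block 15 members were higher and 5 lower at 24 h, 3 and 4 at 6 h, and 4 and 8 at 12 h. Shares over all tested genes are not given for this fit or for the omissions, so these counts describe the members only. Of 40 sign changes with no call on either side, the largest reported log2 fold change was 0.36 in size. Members under about 20 counts per library, such as SNHG21, are limited by depth.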
